A study of Mus musculus with 6 samples.

Results

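The ADAMTS proteases of the aorta wall were followed in bulk RNA-seq of young and aged mice. The 10 genes Adamts1, Adamts2, Adamts4, Adamts5, Adamts7, Adamts8, Adamts9, Adamts10, Adamts12 and Adamts15 were taken by their symbols from the 55335 genes of the count table. All 10 passed the filter on low counts, which left 16612 genes, and 9 other ADAMTS genes of the table served for comparison. The young group was 3 wild-type C57BL/6 mice aged 6 weeks, and the aged group was 3 wild-type C57BL/6 mice aged 6 months. The study's methods describe both groups as male and name no treatment. They describe vessels taken from each mouse, with the surrounding fat dissected. Each library was therefore read as 1 mouse, although this is not stated outright. An age of 6 months is adult rather than old for a mouse, which limits the aged group as a model of late life.

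ADAMTS proteins are secreted metalloproteases that carry thrombospondin type 1 repeats and cut proteins of the extracellular matrix. They are made with a propeptide that furin-like convertases remove, and a zinc ion held by histidines does the cutting. In arteries the family is known for its work on versican and other proteoglycans, on procollagens and on the microfibrils that hold elastic fibres in place.

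The catalytic site is what these genes have in common, so its coding sequence is shown for all 10 members and for Adamts6, the nearest relative of Adamts10. The site was searched in the coding sequence of each gene in GENCODE M21 (build GRCm38) as a histidine, a glutamate, any 2 residues, a histidine, any 5 residues, a histidine and an aspartate, and it was found once per gene. Each line gives 33 bases, 5′ to 3′ on the coding strand, with the codons of the zinc-binding histidines in capitals. The coordinates run from the first to the last base and include 1 intron, because the site is split over 2 exons in every one of these genes. In Adamts1, Adamts4, Adamts5, Adamts8 and Adamts15, the split followed base 10 of the site.
Adamts1 (chr16:85799191-85799545, minus strand): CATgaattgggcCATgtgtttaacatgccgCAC
Adamts4 (chr1:171253210-171253915, plus strand): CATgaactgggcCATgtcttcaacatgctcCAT
Adamts5 (chr16:85878015-85887826, minus strand): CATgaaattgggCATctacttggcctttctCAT
Adamts8 (chr9:30952721-30953378, plus strand): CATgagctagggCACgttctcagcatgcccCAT
Adamts15 (chr9:30911255-30911690, minus strand): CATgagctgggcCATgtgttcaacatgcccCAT
In the other members and in Adamts6, the split followed base 17.
Adamts9 (chr6:92905285-92908493, minus strand): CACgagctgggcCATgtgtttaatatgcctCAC
Adamts2 (chr11:50775403-50776134, plus strand): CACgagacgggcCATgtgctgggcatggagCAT
Adamts7 (chr9:90179456-90180640, plus strand): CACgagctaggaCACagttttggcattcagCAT
Adamts12 (chr15:11241529-11255564, plus strand): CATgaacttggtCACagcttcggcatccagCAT
Adamts10 (chr17:33538157-33538279, plus strand): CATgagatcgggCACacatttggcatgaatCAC
Adamts6 (chr13:104352847-104366809, plus strand): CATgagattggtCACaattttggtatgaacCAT
Of the 33 bases, 12 were identical in all 10 members. These include the first 2 bases of each histidine and glutamate codon of the search pattern. Such bases are fixed by the search and could not differ in any pair. The closest pair was Adamts4 and Adamts15, which differed at 3 bases. Adamts1 differed from Adamts9 and from Adamts15 at 5 bases each, Adamts7 from Adamts12 at 7 and Adamts10 from Adamts6 at 7. The proteoglycan-cutting Adamts9 thus resembled Adamts1 in its bases but had the split of the collagen, COMP and fibrillin group.

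The libraries held between 31049632 and 45832185 reads counted on genes. Markers of smooth muscle summed to between 27960 and 40140 CPM (the count relative to the TMM-scaled library total), and these markers of the labelled tissue were thus abundant in every library. Young replicate 1 stood apart. It held 305.6 CPM of Xist against at most 0.636 in the others. Of the Y-linked genes, Ddx3y was at 1.09 CPM against 44.8 to 65.6 elsewhere, and Eif2s3y at 0.846 against 56.4 to 85.6. Kdm5d was at 0.144 CPM against 18.0 to 25.7, and Uty at 0.103 against 6.01 to 12.6. These values go against the description of young replicate 1 as male. Its cardiac muscle markers summed to 336 CPM against 44.3 to 59.6. Its 10 clock genes summed to 384 CPM against 892 to 1550 elsewhere, and Arntl, a core clock gene, was at 49.8 CPM against at most 8.14. Aged replicate 2 held 1813 CPM of 3 brown fat markers against 66.8 to 524 elsewhere. Its fibroblast markers summed to 1704 CPM, below the 4830 and 6578 of the other aged libraries and the 1858 to 2856 of the young ones. Aged replicate 3 held 1563 CPM of 5 endothelial markers against 317 to 461 in the other libraries. Macrophage markers summed to between 48.7 and 63.2 CPM in young and between 72.5 and 214 in aged libraries. Mitochondrial genes took 14.9% to 21.2% of the counts in young and 23.1% to 30.4% in aged libraries.

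The first question was which of these proteases the aorta makes. Levels of different genes were compared as FPKM, in which counts are divided by the length of the gene and the size of the library. Adamts1, a protease of versican and aggrecan, had the highest mean level with 37.8 ± 9.71 FPKM (SD, n = 6 libraries). Adamts10, which binds fibrillin-1 and takes part in building microfibrils, followed with 28.7 ± 9.48 FPKM. Adamts2, which removes the amino-terminal propeptide of fibrillar procollagens, followed with 21.0 ± 7.24 FPKM. These neighbours were not separated by their spread, since Adamts1 exceeded Adamts10 in 4 of 6 libraries and Adamts10 exceeded Adamts2 in 5 of 6. The step to the next gene was clear: the lowest Adamts2 value was 11.7 FPKM and the highest Adamts8 value was 10.4.

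Adamts8, Adamts15 and Adamts5 made up a middle group. Their means were 8.21 ± 2.04, 5.29 ± 1.88 and 4.57 ± 1.13 FPKM (SD, n = 6 libraries), and the ranges of neighbours overlapped. All 3 are able to cut large proteoglycans, and Adamts5 is the best known aggrecanase together with Adamts4. The lowest Adamts5 value, 3.07 FPKM, lay above the highest Adamts9 value, 1.75. Adamts9, a protease of versican, had a mean of 1.32 ± 0.517 FPKM. Adamts4, Adamts12 and Adamts7 lay at the bottom, with means of 0.364 ± 0.312, 0.350 ± 0.0307 and 0.302 ± 0.103 FPKM, and their order could not be told from these libraries. The same order of all 10 genes was obtained from TMM-scaled CPM per kilobase of annotated exon.

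The 10 members held nearly all ADAMTS transcripts of the tissue. Their share of the summed FPKM of 19 ADAMTS genes was between 94.1% and 97.2% in every library. The 3 most abundant members held 71.4% to 81.0%. Among the 9 other genes, Adamts6 was the most abundant with 3.19 ± 1.77 FPKM (SD, n = 6 libraries) and Adamts14, a procollagen propeptidase like Adamts2, had 1.49 ± 0.522 FPKM. Adamts13, the protease of von Willebrand factor that is made mainly in liver, had 0 counts in all 6 libraries, where 3 counts would be 0.0619 to 0.106 CPM.

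**Figure D1:**
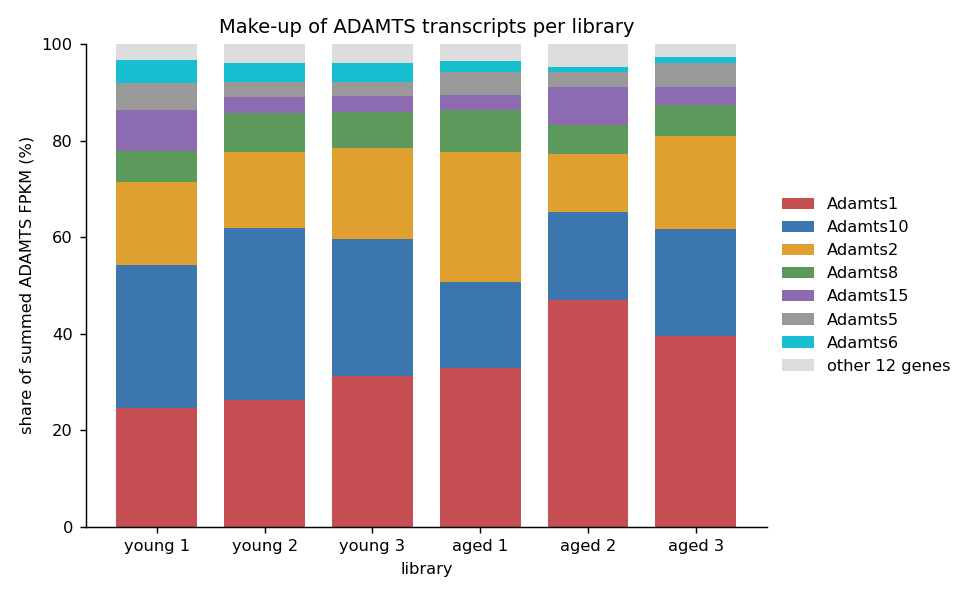
Share of each ADAMTS gene in the summed FPKM of 19 ADAMTS genes (y axis, %) in each of the 6 libraries (x axis), with 7 genes shown singly and the other 12 in pale grey. Adamts1, at the base of each bar, held 24.5% to 31.3% in the young and 32.8% to 47.0% in the aged libraries, while Adamts10 above it held 28.3% to 35.7% and 18.0% to 22.2%.

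The second question was whether the levels differed between young and aged aorta. No member passed an adjusted p of 0.05 in edgeR's quasi-likelihood test, where 0 of 16612 genes did (0%), and the lowest adjusted p among the members was 0.422. DESeq2 called 338 genes, of which 221 were higher in aged aorta (1.48% of those with an adjusted p) and 117 were lower (0.782%), and none was a member. At an unadjusted p below 0.05, 1 member was higher and 0 were lower. The share of all genes at that threshold was 5.56% higher and 4.82% lower, so 1 of 10 is near the background. Without aged replicate 2 it was 3 of 10 members, against 13.8% of all genes in either direction, and without young replicate 1 and aged replicate 2 together it was 2 of 10, against 16.5%. The log2 fold changes of 8 members were above 0 and those of 2 were below, where 8654 of 16612 genes tested were above 0. The median log2 fold change of the members was 0.22 against 0.02 over all genes tested. On the TMM-scaled CPM scale, every aged library lay above every young one in 2 members, Adamts1 and Adamts12, as in 7.74% of all genes tested, and no member was separate in the other direction. This depended on the scaling: as FPKM both genes overlapped (3.24% of all genes had the aged libraries above), and Adamts10 was the 1 member with every aged library below every young one (20.9% of all genes). In a bulk sample, a change in the number of cells of a type and a change in RNA per cell cannot be told apart.

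**Figure D2:**
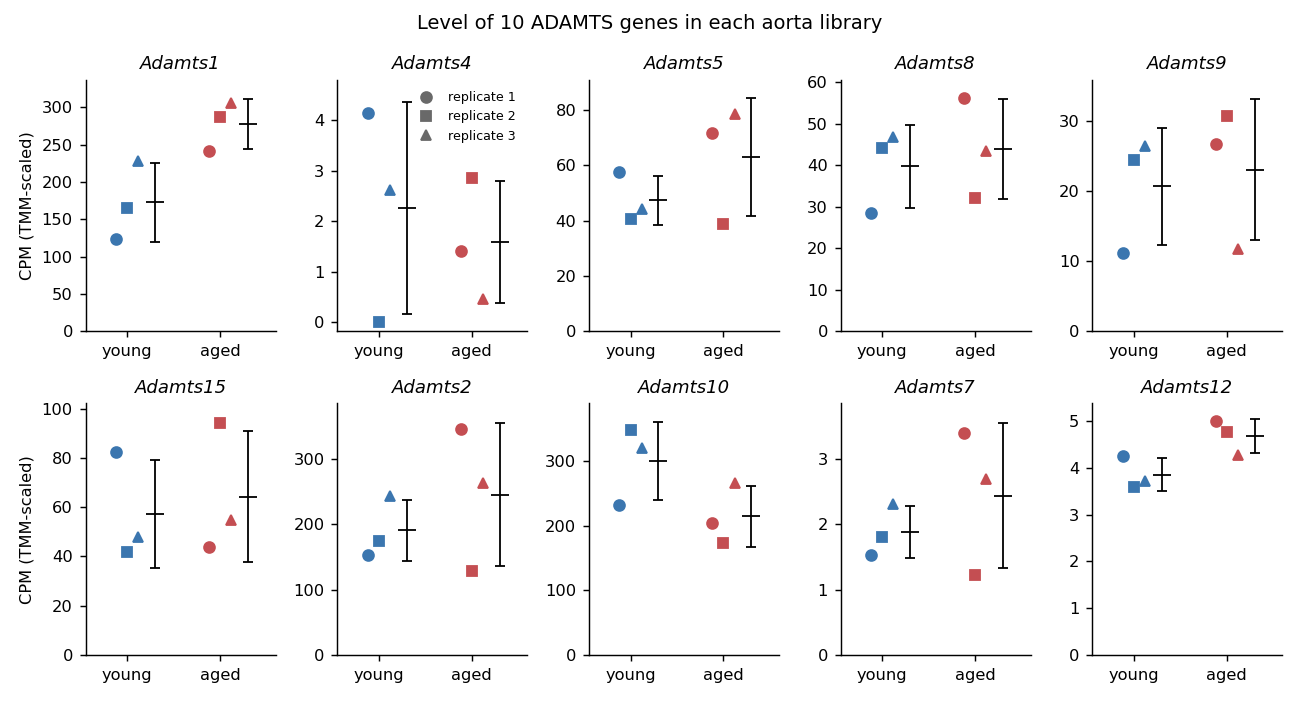
Level of each ADAMTS gene as TMM-scaled CPM (y axis, linear) in the 3 young and 3 aged libraries, with marker shapes for the replicates and the mean ± SD of each group in black. On this scale the groups are separate for Adamts1 and Adamts12 and overlap in the other 8 panels, whereas as FPKM those 2 genes overlap and Adamts10 is separate.

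Adamts1 came closest to a difference among the proteoglycan-cutting members. It lies on the minus strand of chromosome 16, from 85793827 to 85803113. Its level was 124, 165 and 228 CPM in young replicates 1, 2 and 3, and 241, 288 and 305 CPM in aged replicates 1, 2 and 3. On this scale the lowest aged library lay just above the highest young one, and the lowest value of all was in young replicate 1. As FPKM the levels were 22.2, 30.5 and 43.0 in the young and 38.7, 46.3 and 46.4 in the aged replicates, so young replicate 3 lay above aged replicate 1 and the groups overlapped. The TMM factors that scale CPM were 1.06 to 1.11 in young and 0.886 to 0.943 in aged libraries. The means were 172 ± 52.6 and 278 ± 33.3 CPM (SD, n = 3 each), a fold change of 1.61. On the log2 scale the fold change was 0.69 with an SE of 0.24 (edgeR unadjusted p = 0.0245, adjusted p = 0.422). Between 5743 and 10848 reads were counted on Adamts1 per library, so counting error was small beside the spread between mice. Without young replicate 1 the log2 fold change was 0.51 (unadjusted p = 0.0604), without young replicate 2 it was 0.67 (unadjusted p = 0.0711) and without aged replicate 3 it was 0.62 (unadjusted p = 0.0699). Summed macrophage markers, as CPM, were likewise higher in every aged library than in any young one. As FPKM they overlapped, with aged replicate 2 (32.6) below young replicate 1 (36.9). Endothelial markers summed to 1563 CPM in aged replicate 3, the library with the most Adamts1. Their sum was lowest in aged replicate 2 (317 CPM), where Adamts1 was nearly as high (288 CPM). The part of such cells in the Adamts1 level was not tested. The 13 immediate early genes summed to 1021 to 2346 CPM in young and 1125 to 2113 in aged libraries. Singly, 1 of the 13 was higher and 2 were lower at an edgeR unadjusted p below 0.05 (background 5.56% and 4.82%). Junb was higher in aged aorta (unadjusted p = 0.00423, adjusted p = 0.377). Atf3 (unadjusted p = 0.00877, adjusted p = 0.377) and Nr4a1 (unadjusted p = 0.0256, adjusted p = 0.428) were lower.

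Because the promoter of Adamts1 and that of Adamts12 were both at hand in RefSeq (build GRCm38.p6), the 250 bases before each start site are shown for the 2 members whose groups were separate as TMM-scaled CPM, though not as FPKM. Each is written 5′ to 3′ toward the gene, and capitals mark matches to the motifs searched on both strands.
Adamts1 (chr16:85803114-85803363, minus strand): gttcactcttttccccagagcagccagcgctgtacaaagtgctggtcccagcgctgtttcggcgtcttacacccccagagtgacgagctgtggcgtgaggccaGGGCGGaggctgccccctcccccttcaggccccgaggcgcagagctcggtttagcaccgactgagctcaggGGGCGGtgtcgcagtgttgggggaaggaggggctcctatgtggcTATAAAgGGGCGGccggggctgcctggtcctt
Adamts12 (chr15:11064523-11064772, plus strand): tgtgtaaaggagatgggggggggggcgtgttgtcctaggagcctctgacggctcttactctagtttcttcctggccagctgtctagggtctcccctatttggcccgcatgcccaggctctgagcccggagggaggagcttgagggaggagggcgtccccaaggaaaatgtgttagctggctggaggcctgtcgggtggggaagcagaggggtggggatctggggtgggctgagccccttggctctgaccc
The Adamts1 window held 1 TATAAA, which began 32 bases before the start and is also found, on either strand, in 12.4% of 32851 mouse promoter windows of the same length. It held 3 copies of GGGCGG, the GC box, at 147, 76 and 25 bases before the start, and 32.7% of all windows hold this box. The TATAAA and the nearest GGGCGG did not overlap. The CCAAT box (CCAAT) was in neither window, against 33.8% of all windows. The AP-1 site (TGACTCA), the E-box (CACGTG) and the cyclic AMP response element (TGACGTCA) were in neither window too, against 4.46%, 6.02% and 1.55% of all windows. None of the 6 motifs lay in the Adamts12 window. GC content was 65.6% for Adamts1 and 63.2% for Adamts12, against a median of 52.4% over all windows. The windows of Adamts2 and Adamts9 held 5 GC boxes and 1, and the other 6 members had no entry in the promoter table used here.

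Adamts5 lies 53.1 kb from Adamts1 on the same strand of chromosome 16, with 0 protein-coding genes between them. Its level was 57.4, 40.7 and 44.1 CPM in the young and 71.8, 38.8 and 78.7 CPM in the aged replicates 1 to 3. Aged replicates 1 and 3 were the highest of all libraries and aged replicate 2 was the lowest, so the groups overlapped. The log2 fold change was 0.41 with an SE of 0.29 (edgeR unadjusted p = 0.191, adjusted p = 0.635). It depended on aged replicate 2, without which it was 0.67 (unadjusted p = 0.0128, adjusted p = 0.245). The neighbours did not share their pattern over libraries, since aged replicate 2 was among the highest for Adamts1 and the lowest for Adamts5.

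Adamts8 and Adamts15 are the other pair of neighbours, transcribed away from each other on chromosome 9 with 20.1 kb between their starts. Adamts8, also known for restraining angiogenesis, was at 28.4, 44.1 and 46.7 CPM in the young and 56.3, 32.2 and 43.3 CPM in the aged replicates. Adamts15 was at 82.5, 41.6 and 47.9 CPM in the young and 44.0, 94.4 and 54.7 CPM in the aged replicates. The 2 libraries with the least Adamts8, young replicate 1 and aged replicate 2, had the most Adamts15. As FPKM, Adamts15 over Adamts8 was 1.29 and 1.30 in these libraries and 0.347 to 0.562 in the other 4. These are the libraries that also held the most cardiac muscle and the most brown fat markers, and the part of these tissues in the values was not tested. Between the age groups the log2 fold changes were 0.15 with an SE of 0.27 for Adamts8 and 0.17 with an SE of 0.36 for Adamts15, well within the spread.

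Adamts9 and Adamts4 complete the proteoglycan-cutting members. Adamts9 was at 11.1, 24.4 and 26.4 CPM in the young and 26.7, 30.7 and 11.7 CPM in the aged replicates, and so each group held 1 low library, young replicate 1 and aged replicate 3. Its log2 fold change was 0.16 with an SE of 0.43. Adamts4 had 201, 0 and 90 counts in the young and 47, 108 and 13 counts in the aged replicates. In CPM these were 4.15, 0 and 2.62 against 1.41, 2.86 and 0.460, where 3 counts in the library with none would be 0.0862 CPM. The log2 fold change was -0.51 with an SE of 1.30, so a difference of either sign could not be detected at this level. Adamts8 and Adamts9 overlap exons on the other strand, of genes with at most 137 counts in a library, and whether the counting used strand is not given in the sources used here.

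Adamts2, the procollagen propeptidase, lies on the plus strand of chromosome 11 from 50602084 to 50807573. Its level was 154, 175 and 243 CPM in the young and 345, 128 and 262 CPM in the aged replicates. The highest and the lowest library were both aged, with a ratio of 2.70 between them. The log2 fold change was 0.36 with an SE of 0.36 (edgeR unadjusted p = 0.349, adjusted p = 0.739), and without aged replicate 2 it was 0.67 (unadjusted p = 0.0293, adjusted p = 0.315).

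Adamts7 and Adamts12 form the group known for cutting cartilage oligomeric matrix protein, COMP, which smooth muscle cells also make. Adamts7 was at 1.53, 1.81 and 2.30 CPM in the young and 3.40, 1.22 and 2.69 CPM in the aged replicates, with 46 to 113 counts per library. The pattern was that of Adamts2, with aged replicate 1 highest and aged replicate 2 lowest, and the log2 fold change was 0.37 with an SE of 0.45. Adamts7 shares 122 exonic bases with the oppositely transcribed Tbc1d2b, which had 2165 to 4442 counts. Adamts12 was at 4.25, 3.59 and 3.73 CPM in the young and 4.99, 4.77 and 4.28 CPM in the aged replicates. It was the steadiest of the members, with a ratio of 1.39 between its highest and lowest library. Young replicate 1 and aged replicate 3 nearly met, and the log2 fold change was 0.28 with an SE of 0.24 (edgeR unadjusted p = 0.275, adjusted p = 0.689).

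As TMM-scaled CPM, the 6 libraries fell in the same order for Adamts2, for Adamts7 and for the summed markers of fibroblasts. From low to high, this order was aged replicate 2, young replicates 1, 2 and 3, aged replicate 3 and aged replicate 1. It was noticed after the values were seen, and 54 of 16612 genes tested (0.325%) had it. As FPKM the summed markers kept this order, but Adamts2 and Adamts7 did not. Young replicate 3 then lay above aged replicate 3, at 26.0 against 22.7 FPKM for Adamts2 and 0.362 against 0.342 for Adamts7. The markers, Pdgfra, Dcn, Lum, Dpt, Pi16 and Col1a1, summed to 1704 CPM in the lowest library and 6578 in the highest. For Adamts5 the 2 libraries richest in fibroblast markers were also the highest and aged replicate 2 was the lowest, but young replicate 1 was out of order. The order holds for the sum, to which Dcn and Col1a1 gave the most CPM, and 0 of the 6 markers had it singly. In aged replicate 2, Pdgfra (54.5 CPM) and Dpt (154 CPM) lay above every young library. The part of fibroblasts in these levels was not tested.

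**Figure D3:**
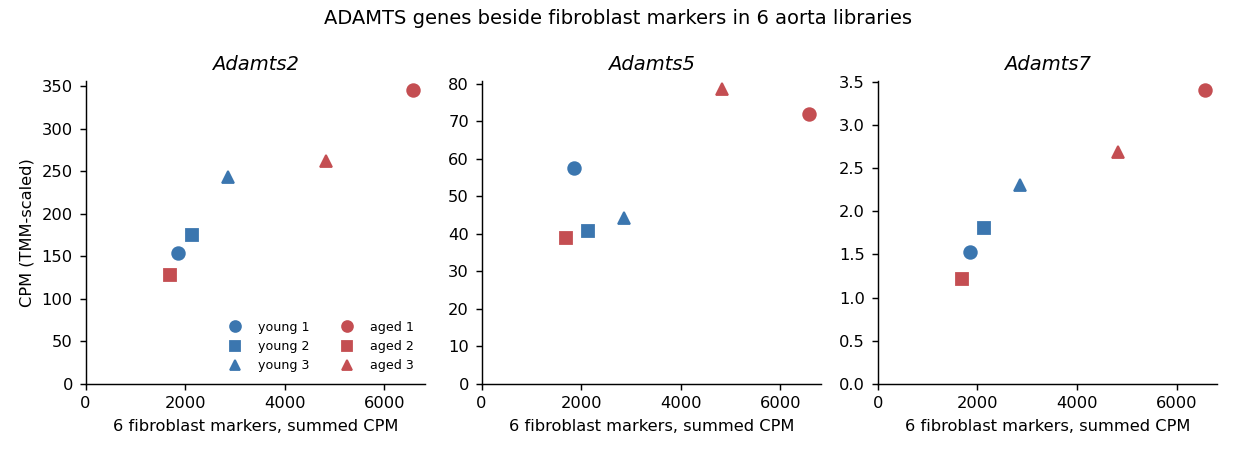
Level of Adamts2, Adamts5 and Adamts7 (y axis, TMM-scaled CPM) against the summed CPM of 6 fibroblast markers (x axis) in each library, with colour for age and shape for replicate. Aged replicates 1 and 3 lie at the right, at 6578 and 4830 CPM of markers, and aged replicate 2 lies at the left with 1704, beside the young libraries.

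Adamts10, the fibrillin-binding member, was the 1 abundant member with a log2 fold change below 0. It lies on the plus strand of chromosome 17 from 33524204 to 33553782. Its level was 233, 349 and 320 CPM in the young and 205, 173 and 266 CPM in the aged replicates. On this scale only aged replicate 3, above young replicate 1, kept the groups from being separate. As FPKM the levels were 26.8, 41.5 and 38.8 in the young and 21.2, 18.0 and 26.1 in the aged replicates, and every aged library lay below every young one. The means were 301 ± 60.9 and 215 ± 47.3 CPM (SD, n = 3 each), and the log2 fold change was -0.49 with an SE of 0.23 (edgeR unadjusted p = 0.0713, adjusted p = 0.517). Without young replicate 1 it was -0.63 (unadjusted p = 0.0301), and without aged replicate 3 it was -0.67 (unadjusted p = 0.0305). With any other library left out it lay between -0.45 and -0.35, at an unadjusted p of 0.148 to 0.228. Smooth muscle markers summed to 32232 to 40140 CPM in young and 27960 to 33326 CPM in aged libraries, and their part in the Adamts10 level was not tested.

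The 2 most abundant members were also set against each other within each library. As FPKM, Adamts10 over Adamts1 was 1.21, 1.36 and 0.904 in the young and 0.547, 0.388 and 0.562 in the aged replicates. Every young ratio lay above every aged one, and the means were 1.16 ± 0.234 and 0.499 ± 0.0965 (SD, n = 3 each). Adamts10 was the most abundant ADAMTS gene in young replicates 1 and 2, and Adamts1 was in the other 4 libraries. The pair was picked after its values were seen, so the ratio is given without a test. A ratio within a library does not depend on library scaling, but it does not say which of both genes differed.

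**Figure D4:**
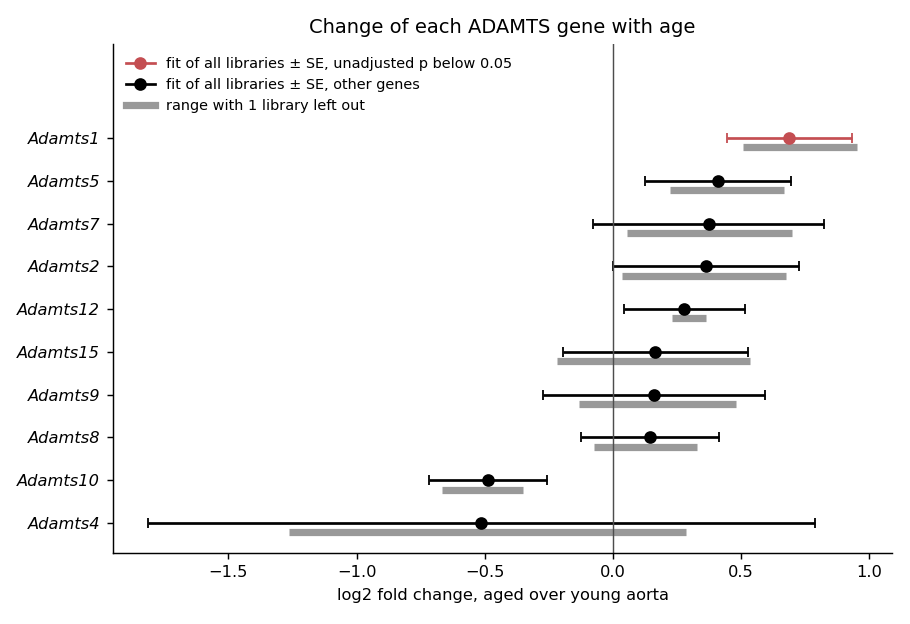
Log2 fold change of aged over young aorta for each ADAMTS gene (x axis), as points with their SE from the edgeR fit of all 6 libraries, above grey bars that span the values obtained with 1 library left out. The bars stay above 0 for Adamts1, Adamts5, Adamts7, Adamts2 and Adamts12, stay below 0 for Adamts10 and cross 0 for the other 4 genes.

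Adamts6, the relative of Adamts10, had a log2 fold change further below 0, although the difference between the 2 genes was not tested. Its level was 36.0, 35.0 and 41.7 CPM in the young and 23.3, 8.75 and 14.8 CPM in the aged replicates. Every aged library lay below every young one, as in 8.78% of all genes tested, and this held as FPKM too (20.9%). The log2 fold change was -1.27 with an SE of 0.33 (edgeR unadjusted p = 0.00637, adjusted p = 0.377), and DESeq2 gave an adjusted p of 0.0294. Of the 9 other ADAMTS genes 4 were tested, with a median log2 fold change of -0.19. At an unadjusted p below 0.05, 0 were higher and 1 was lower (background 5.56% and 4.82%). Adamts14 was at 3.86 to 11.1 CPM with a log2 fold change of 0.07 and an SE of 0.40. Of the 5 genes not tested, Adamts16, Adamts18, Adamts19 and Adamts20 had at most 32 counts in a library.

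The ADAMTS-like genes resemble the proteases without their catalytic domain, and several bind microfibrils. Of 7 tested, 3 were higher and 0 lower at an unadjusted p below 0.05 (background 5.56% and 4.82%), and the median log2 fold change was 0.15. Adamtsl2, which binds fibrillin-1 and latent TGF-β binding protein, was at 19.9, 33.5 and 31.7 CPM in the young and 98.0, 39.0 and 69.0 CPM in the aged replicates, a log2 fold change of 1.28 with an SE of 0.36 (edgeR adjusted p = 0.377). DESeq2 gave an adjusted p of 0.0366 for it. Adamtsl1 had a log2 fold change of 0.92 (edgeR adjusted p = 0.390) and Papln, which encodes papilin, had one of 2.07 at no more than 1.73 CPM (adjusted p = 0.421). In all 3 genes the aged libraries lay above the young ones, both as CPM (7.74% of all genes tested) and as FPKM (3.24%). The highest mean CPM were those of Thsd4, another microfibril-binding gene, with 44.2 to 505 CPM and a log2 fold change of -0.58 (SE 0.84), and Adamtsl5 with 91.8 to 156 CPM and one of -0.22 (SE 0.21). For Adamtsl5 every aged library lay below every young one as FPKM (20.9% of all genes tested), though not as CPM.

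Substrates came next. Of 19 genes, 16 were tested, with a median log2 fold change of -0.11. At an unadjusted p below 0.05, 1 was higher and 1 was lower (background 5.56% and 4.82%). Nid1, the basement membrane protein nidogen-1 that Adamts1 can cut, was at 52.3, 70.7 and 85.3 CPM in the young and 176, 60.5 and 184 CPM in the aged replicates, so that aged replicate 2 lay among the young libraries (log2 fold change 1.01, SE 0.42, edgeR adjusted p = 0.469). Col5a1, a chain of collagen V, had a log2 fold change of -0.54 (SE 0.22, adjusted p = 0.469). The highest mean CPM were those of Bgn, the small proteoglycan biglycan, at 4685 to 6414 CPM, and Col3a1, a substrate of Adamts2, at 1336 to 3068 CPM. Their log2 fold changes were 0.21 (SE 0.18) and -0.28 (SE 0.31). Per length, as FPKM, Ctgf (mean 395), which encodes connective tissue growth factor, lay between Bgn (789) and Col3a1 (215); it was named after its values were seen.

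Genes of activation and secretion had a median log2 fold change of -0.08. At an unadjusted p below 0.05, 1 of 7 was higher and 0 were lower (background 5.56% and 4.82%). The 1 was Pcsk6, a furin-like convertase, at 20.0, 34.6 and 29.1 CPM in the young and 50.2, 32.2 and 65.3 CPM in the aged replicates (log2 fold change 0.82, SE 0.31, edgeR adjusted p = 0.443). The highest mean CPM were those of Pofut2, which adds fucose to thrombospondin repeats and so allows secretion, and Mmp17, a membrane-bound protease that activates Adamts4. Their log2 fold changes were 0.32 (SE 0.38) and -0.38 (SE 0.18).

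All 9 tested genes of 10 for inhibitors, cofactors and clearance had a log2 fold change above 0, as did 8654 of 16612 genes tested. The median of the list was 0.43 against 0.02 over all genes tested, with Lrp1 at 0.02 and Sdc4 at 0.05. Of the 9 genes, 2 were higher and 0 lower at an unadjusted p below 0.05 (background 5.56% and 4.82%). Timp1, an inhibitor of metalloproteases, was at 13.9, 14.3 and 11.7 CPM in the young and 94.0, 10.7 and 58.5 CPM in the aged replicates. Its log2 fold change was 2.03 (SE 0.66, edgeR adjusted p = 0.400). Fbln1, which encodes fibulin-1, a cofactor of Adamts1, was at 94.6, 93.2 and 96.6 CPM in the young and 401, 59.3 and 343 CPM in the aged replicates (log2 fold change 1.50, SE 0.60, adjusted p = 0.458). In both genes aged replicates 1 and 3 were far above the young libraries while aged replicate 2 was the lowest of all 6. Aged replicate 2 was also the lowest library for the summed fibroblast markers, and for 3 of the 6 singly. Without aged replicate 2 the edgeR adjusted p was 0.0302 for Timp1 and 0.0272 for Fbln1, in a fit where 110 genes of 17147 passed. With any other single library left out, it was 0.438 to 0.817 for Timp1 and 0.491 to 0.842 for Fbln1. The unadjusted p in those fits was 0.0373 to 0.0686 for Timp1 and 0.0861 to 0.136 for Fbln1. With all 6 libraries, DESeq2 gave an adjusted p of 0.0336 for Timp1 and 0.129 for Fbln1. Timp3, the main inhibitor of Adamts4 and Adamts5, had the highest mean CPM, at 1196 to 2084 CPM, with a log2 fold change of 0.42 (SE 0.21), and Timp2 followed at 432 to 956 CPM with 0.37 (SE 0.30).

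**Figure D5:**
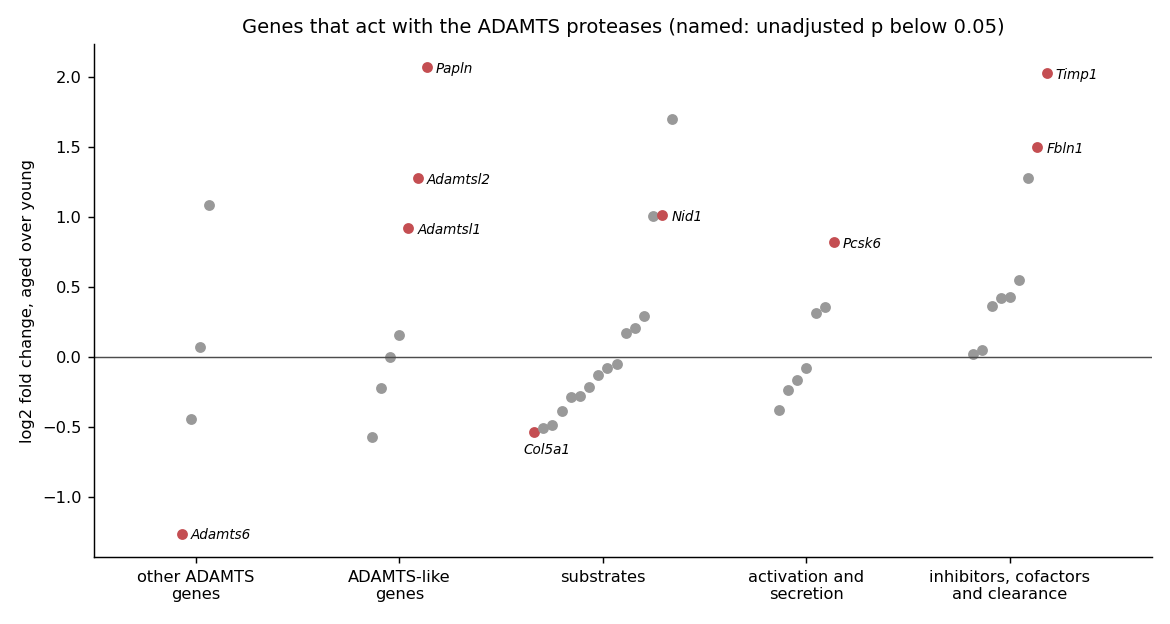
Log2 fold change of aged over young aorta (y axis) for the tested genes of 5 lists (x axis), 1 point per gene in order of its value within the list. Red points with names had an unadjusted p below 0.05, from -1.27 for Adamts6 to 2.07 for Papln, and grey points did not.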

How the data were processed

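RNA of aorta was sequenced from 3 young and 3 aged mice with the SMARTER mRNA-Seq kit and single-ended reads. The authors deposited raw counts per gene, as whole numbers without normalization, and FPKM per gene, which follow the same counts scaled for gene length and library size. The submitters' processing notes name the build mm10. The aligner, the counting tool, the annotation and the use of strand are not given in the sources used here. Of 55335 gene identifiers, 55154 were found in GENCODE M21.

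Counts were filtered with filterByExpr (minimum count 10, minimum total 15), scaled by TMM and tested with edgeR 4.0.16 (quasi-likelihood, no covariates, R 4.3.3). The study's general statistics, Student's or Wilcoxon tests, were not used because these values are counts. P values were adjusted by Benjamini-Hochberg over every gene in the fit, and 0.05 was the threshold. An unadjusted p below 0.05 is given as a description. The SE of a log2 fold change is its size divided by the square root of F. The p-values measure the spread between these libraries, which were read as 1 per mouse. The fit was also run on simulated counts as a check of the code, and no power or error rate for these data is taken from that run.

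The members and gene lists were chosen with earlier results of these data known. Named were all members, and of each list the genes with an unadjusted p below 0.05 and the 2 with the highest mean CPM. Ccn2 of the substrate list was found under its older symbol Ctgf. Alternatives were RLE scaling, no filter, at least 10 counts in every library, robust fitting, removal of mitochondrial genes, DESeq2 1.42.0, a block for the replicate number, leaving out 1 library at a time, and limma 3.58.1 on log2(FPKM + 1) or log2(FPKM + 0.1) for genes with a mean FPKM of at least 0.1. Leaving out young replicate 1 and aged replicate 2 together was added after the data were seen. Same-numbered replicates were not treated as pairs in the main fit. Their deviations from the group means correlated at 0.0786, 0.117 and 0.0957, and not all exceeded 0.1. Each of these lay above the correlations of differently numbered replicates, which ran from -0.134 to 0.0549. The fit with a block for the replicate number is therefore given below. A gene that overlaps 1 of the members is not reported here.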

Additional observations from a re-analysis of the deposited data

How the results depend on the processing

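The log2 fold changes of Adamts1, Adamts2, Adamts5, Adamts7, Adamts10 and Adamts12 kept their direction under all 16 alternatives, and no member passed an adjusted p of 0.05 under any. The count of members at an unadjusted p below 0.05 was 1, with a range of 0 to 3 when 1 library was left out: 0 without young replicate 2 and 3 without aged replicate 2 (Adamts1, Adamts2 and Adamts5), where 13.8% of all genes had such a p. Without both young replicate 1 and aged replicate 2 it was 2, Adamts5 with a log2 fold change of 0.83 (unadjusted p = 0.00306, adjusted p = 0.135) and Adamts10 with -0.50, against 16.5% of all genes, while Adamts1 was at 0.48 (unadjusted p = 0.0891) and Adamts9 at -0.40. Over all genes, 338 were called by DESeq2, and 0 to 110 with 1 library left out, the 110 without aged replicate 2.

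Under limma on log2(FPKM + 1) and log2(FPKM + 0.1), the fit moved the median of all genes to -0.12 and -0.20. Adamts1 was then at 0.49 and 0.50 with an unadjusted p above 0.05, and Adamts10 at -0.68 and -0.71 with one below it. Adamts8 was at -0.0707 and -0.0781, Adamts9 at -0.0369 and -0.0709 and Adamts15 at -0.0512 and -0.0635, but relative to the median these were 0.05 and 0.12, 0.08 and 0.13, and 0.07 and 0.13. With 1 library left out, the log2 fold change ranged from 0.51 to 0.95 for Adamts1, 0.0344 to 0.67 for Adamts2, 0.22 to 0.67 for Adamts5, -0.67 to -0.35 for Adamts10, -1.26 to 0.28 for Adamts4, -0.0733 to 0.33 for Adamts8, -0.13 to 0.48 for Adamts9 and -0.22 to 0.53 for Adamts15. Adamts4 was above 0 without young replicate 1. Adamts8 was below 0 without young replicate 1 (-0.0410) or aged replicate 1 (-0.0733), Adamts9 without young replicate 1 (-0.13) or aged replicate 2 (-0.10), and Adamts15 without young replicate 2 (-0.01) or aged replicate 2 (-0.22). The cause was not tested. Adamts4 and Papln were not in the fit of genes with 10 counts or more in each library.

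The replicate block gave Adamts1 a log2 fold change of 0.73 (unadjusted p = 0.00745, adjusted p = 0.430) and called 0 genes, and under the block 0 genes of the activation list and 0 of the inhibitor list had an unadjusted p below 0.05. With both limma settings that count was 1 for ADAMTS-like genes, 4 for substrates and 0 for inhibitors, with robust fitting it was 1 for substrates, and without a filter it was 2 for the other ADAMTS genes. Without young replicate 1 and aged replicate 2 it was 5 for substrates, 2 for activation and 5 for inhibitors. With 1 library left out it ranged from 1 to 2 for the other ADAMTS genes, 2 to 3 for ADAMTS-like genes, 0 to 3 for substrates, 0 to 2 for activation and 0 to 4 for inhibitors. The mean level of Adamts12 was 0.391 CPM per kilobase of exon against 0.350 FPKM, beyond its SD of 0.0307. Depth limits Adamts4 and Adamts7, with means of 76.5 and 75.2 counts per library.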
